A study of Rattus norvegicus with 9 samples.

Results

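Right ventricles of rats were examined for the genes of glucose uptake, glycolysis and glycogen, the route by which heart muscle takes up sugar, breaks it down to pyruvate and lactate, or stores it. The 35 genes were listed by symbol, and each was represented by the array feature annotated with that symbol alone and with the highest mean over all arrays. All 35 had such a feature, out of 14506 genes that could be named in this way among 29215 features. In F+ ventricles, values of the glucose transporter Slc2a1, the phosphofructokinase Pfkl and the lactate transporter Slc16a3 were above every value in both other groups, and those of the muscle phosphofructokinase Pfkm were below them. The gap was small for Slc16a3 (36.6 against 36.5) and Pfkm (119.8 against 119.9), and the share of all features with such a pattern was not counted. Log2 fold changes in the 3 comparisons lay between -0.22 and 0.28, and no gene passed the test over all features.

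All 9 arrays held right ventricular tissue of male SD rats, with no age stated in the sources used here. The F+ and F- groups had undergone pulmonary artery banding (PAB), a constriction against which the right ventricle must pump and hypertrophies. After 4 weeks these hearts were sorted by the share of tissue that was fibrotic, above 6.5% in the F+ group and below it in the F- group. The sham group was operated on without banding. Each group had 3 Affymetrix Rat Gene 1.0 ST arrays. According to the methods, hybridizations were run in triplicate with averaged intensities. No source says that the 3 arrays of a group came from separate animals. The p-values here thus measure no more than the spread among these arrays, and that spread may be technical. Because F+ and F- were separated by fibrosis in the same tissue, and the arrays measured whole tissue, fewer cells of a type and less RNA per cell cannot be told apart.

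The authors deposited 1 signal intensity per feature and array, between 1.0 and 190.4. The sources used here state neither their normalization nor their scale. Array medians lay between 33.4 and 33.9. The square roots of the values ran between 1.0 and 13.8, a range that log2 intensities also have. Fold changes here are differences of mean log2 deposited values, and where the deposited values were squares of log2 intensities the folds would be larger. Such a value is given beside the main changes as the fold if squared. Folds printed by the authors for the genes Nppa and Hbb lie close to plain ratios of mean deposited values. The authors thus appear to have used the values as linear intensities, and the folds if squared depart from that use.

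As to heart muscle, the tissue label was met by the cardiomyocyte markers, which do not tell ventricle from atrium. The summed value of 8 of them (Myh6, Tnnt2, Tnni3, Actc1, Ryr2, Pln, Ckm and Mb) was 1255.2 to 1276.1 on F+ arrays, 1271.0 to 1294.6 on F- arrays and 1259.7 to 1292.6 on sham arrays. Markers of some other cell types differed in value between the groups. The summed value of 8 macrophage markers was 523.8 to 572.1 on F+ arrays, 522.0, 418.1 and 424.5 on F- arrays 1, 2 and 3, and 439.7 to 468.5 on sham arrays. The sum of 6 red cell markers was 206.7 to 321.1 on F+ arrays, 153.7 to 169.7 on F- arrays and 169.5 to 187.8 on sham arrays. Both lists had every member at a higher value in F+ than in F-, and the cardiomyocyte list had 8 of 8 at a lower value. The sum of 4 smooth muscle markers was 267.3 to 274.6 on F+ arrays, 250.7 to 257.5 on F- arrays and 259.2 to 266.7 on sham arrays, with 4 of 4 at a higher value in F+ than in F-, whereas that of 4 endothelial markers overlapped between F+ arrays (322.7 to 330.7) and F- arrays (312.2 to 323.9), with 3 of 4 at a higher value. The sum of 7 fibroblast markers overlapped too, at 607.3 to 664.0 on F+ arrays, 583.8 to 659.7 on F- arrays and 579.3 to 627.1 on sham arrays. Of these markers, 5 of 7 had a higher value in F+ than in F-. The part of these cells in the results below was not tested. Of the arrays, 3 stood apart. F- array 1 did so by its macrophage markers and by the fibroblast gene Postn, at 86.7 against 43.6 and 35.4 on the other F- arrays and 65.5 to 77.6 on F+ arrays, the stress gene Nppa, at 155.6 against 37.0 and 43.6, and the actin gene Acta1, at 169.4 against 144.7 and 145.5. Other fibroblast markers varied on this array, with the lowest value of all arrays for Dcn (154.3) and Pdgfra (69.8) and the highest for Col1a1 (87.2). The label of F- array 1 places it in the group with less fibrosis, and it was kept there. The other arrays were sham array 2 with a sum of 4 atrial markers of 486.6, against 214.2 and 218.7 on the other sham arrays, and sham array 1 with the lowest value of all arrays for 10 of the 35 genes.

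The adult heart draws most of its energy from fatty acids, and glucose use is known to gain ground when the muscle is overloaded. Glucose enters through the transporters Slc2a1 (GLUT1), present without insulin, and Slc2a4 (GLUT4), brought to the surface by insulin and contraction. Hexokinases trap it as a phosphate, phosphofructokinases commit it to glycolysis, and lactate dehydrogenases and monocarboxylate transporters handle the end product. Several steps have a muscle isoform and a more widely expressed isoform encoded by separate genes. Many genes of the pathway are known targets of hypoxia-inducible factors, which bind a short DNA core, ACGTG or GCGTG.

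To show that core where the genes start, the 250 bases before the start were read from RefSeq (rat GRCr8), in which 33 of the 35 genes had a window, 37 windows in all. ACGTG or GCGTG, on either strand, was present in 25 of the 37 windows (67.6%) and in 36.7% of 33469 windows of all genes. The median GC content was 60% in the windows of the 35 genes and 51.2% in all windows, and both motifs hold C and G. Windows are shown for the transporters Slc2a1 and Slc16a3, which had the largest differences between F+ and F-, for Ldha, a classical target of these factors, and for Pygb, whose value was lower in F+. They lie on the + strand of GRCr8 at chr5:138002272-138002521, chr10:106712078-106712327, chr1:106507842-106508091 and chr3:160071891-160072140, in that order, and capitals mark each ACGTG or GCGTG in either orientation, read as CACGT or CACGC on the strand shown.
Slc2a1: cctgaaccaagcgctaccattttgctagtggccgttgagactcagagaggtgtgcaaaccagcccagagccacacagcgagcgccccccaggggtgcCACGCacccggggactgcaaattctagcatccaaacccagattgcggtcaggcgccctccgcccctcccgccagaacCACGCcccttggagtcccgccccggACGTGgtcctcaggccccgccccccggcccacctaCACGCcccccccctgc
Slc16a3: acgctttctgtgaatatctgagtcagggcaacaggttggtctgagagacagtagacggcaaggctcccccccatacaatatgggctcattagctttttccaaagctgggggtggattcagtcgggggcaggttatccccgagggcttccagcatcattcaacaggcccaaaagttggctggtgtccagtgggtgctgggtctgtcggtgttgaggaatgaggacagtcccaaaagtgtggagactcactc
Ldha: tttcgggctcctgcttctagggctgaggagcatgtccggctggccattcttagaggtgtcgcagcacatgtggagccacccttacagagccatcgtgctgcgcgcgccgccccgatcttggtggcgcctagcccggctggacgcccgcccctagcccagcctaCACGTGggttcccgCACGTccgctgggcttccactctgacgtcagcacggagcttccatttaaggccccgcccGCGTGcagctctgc
Pygb: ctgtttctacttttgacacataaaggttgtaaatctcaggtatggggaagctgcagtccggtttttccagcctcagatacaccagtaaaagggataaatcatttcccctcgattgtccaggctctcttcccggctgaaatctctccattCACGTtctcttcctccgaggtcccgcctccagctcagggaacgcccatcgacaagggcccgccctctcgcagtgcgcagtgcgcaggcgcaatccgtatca
Slc2a1 and Ldha had 4 matches each, Pygb had 1 and Slc16a3 had 0. In Ldha the stretch CACGTG holds ACGTG on both strands and was counted once for each strand. A match is a run of letters, and binding was not measured.

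F+ ventricles were compared with F- ventricles to separate fibrosis from the hypertrophy that both groups share. No gene of the 35 passed the adjusted threshold of 0.05 in limma, in which 1 of all features (0.00342%) did, at a lower value in F+. The smallest adjusted p among the 35 was 0.516. At an unadjusted p under 0.05 there were 4 genes (11.4%), all at higher values in F+, against 7.41% of all features in either direction and 3.65% in that direction (8.47% of the named genes, with 1 feature each, in either direction). The 35 genes were evenly split, 17 at higher and 18 at lower values (48.2% of all features had higher values), and their median log2 fold change was -0.0021, against -0.0023 over all features, with a change of sign as single arrays were left out (-0.0065 to 0.0057). Values of F+ and F- arrays did not overlap for 6 genes (17.1%), against 9.74% of all features and 11.7% of the named genes. The 3 that lay above were Slc2a1, Pfkl and Slc16a3 (4.46% of all features), and the 3 that lay below were Pfkfb1, Pfkm and Gys1 (5.28%).

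F- ventricles were compared with sham-operated ventricles to look at hypertrophy without much fibrosis. Again no gene passed the adjusted threshold (smallest adjusted p = 0.743 from limma), nor did any feature. At an unadjusted p under 0.05 there were 2 genes (5.71%), both at higher values, against 6.03% of all features (3.07% at higher values) and 5.58% of the named genes. Of the 35, 23 had higher and 12 lower values (48.1% of all features had higher values), and the median log2 fold change was 0.018 (0.0044 without sham array 1), against -0.0025 over all features. Only Ugp2 had no overlap (2.86%, against 9.79% of all features and 9.83% of the named genes).

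F+ ventricles were then compared with sham-operated ventricles, which they differ from in both banding and fibrosis. No gene and no feature passed the adjusted threshold (smallest adjusted p among the 35 = 0.600 from limma). At an unadjusted p under 0.05 there were 7 genes (20%), 6 at higher values and 1 at a lower value, against 7.4% of all features (3.5% higher, 3.9% lower) and 8.57% of the named genes. F+ and sham arrays did not overlap for 15 genes (42.9%), against 12.2% of all features and 15.1% of the named genes. Of these, 11 lay above (31.4%, against 5.69% of all features), namely Slc2a1, Hk1, Pfkl, Pfkp, Tpi1, Eno1, Pkm, Ldha, Slc16a1, Slc16a3 and Gbe1. The 4 that lay below were Pfkm, Pdha1, Pygm and Pygb (11.4%, against 6.56%). The median log2 fold change was 0.034, against -0.0035 over all features, and 23 genes had higher and 12 lower values (47.5% of all features had higher values). The shares over all features are a rough background, since 25 of the 35 genes were among the brightest 10% of features. Each pair of comparisons shares 1 group of arrays, so the 3 sets of counts are not independent.

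**Figure D1:**
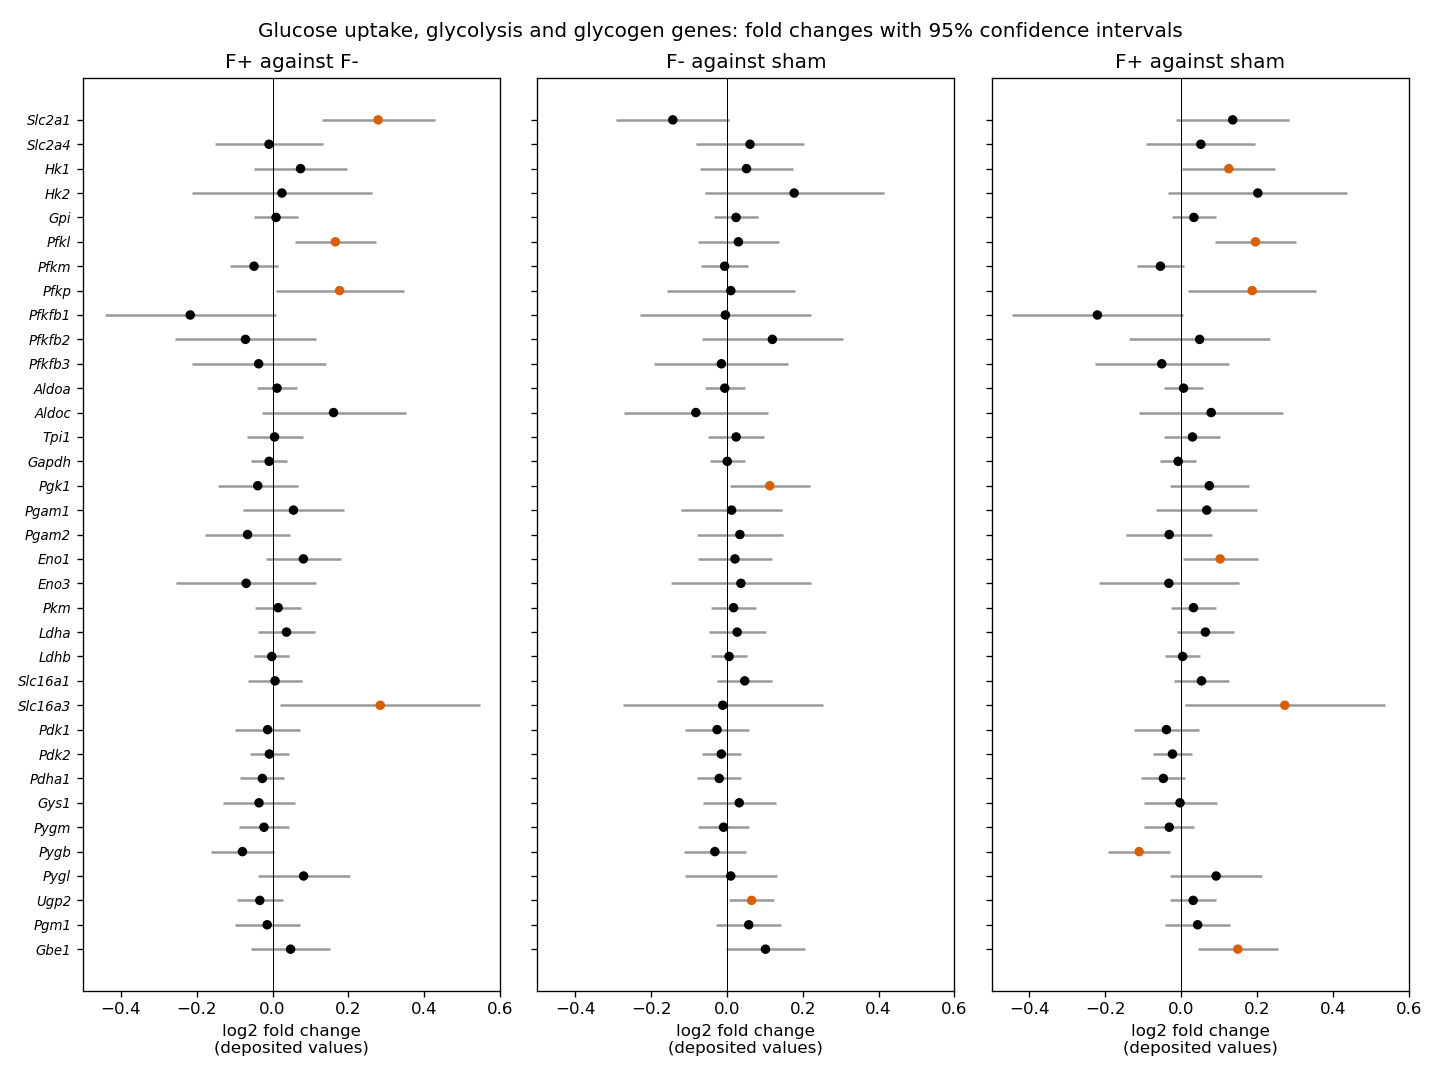
Log2 fold change of deposited values (x axis) for the 35 genes (y axis, in pathway order) in the 3 comparisons, as points with 95% confidence intervals from limma, orange where the unadjusted p was under 0.05. In F+ against F- the 4 orange points (Slc2a1, Pfkl, Pfkp and Slc16a3) all lie to the right of 0, and the intervals of all other genes in that comparison cross 0.

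**Figure D2:**
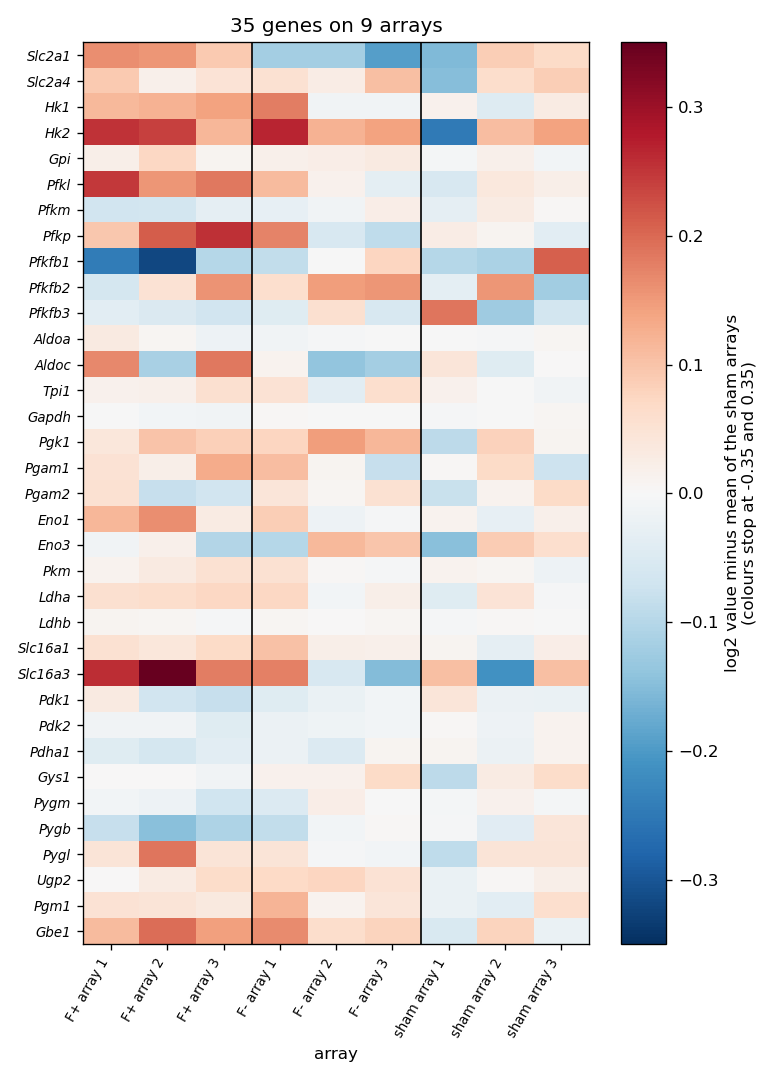
Log2 deposited value of each of the 35 genes minus its mean on the sham arrays, on each of the 9 arrays, with colours that stop at -0.35 and 0.35. Rows such as Gapdh and Ldhb are nearly white throughout, F- array 1 resembles the F+ arrays in Pfkp, Hk1 and Slc16a3, and sham array 1 is blue for Hk2 and Slc2a4.

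At the step of glucose uptake, the transporters differed in pattern. Slc2a1 had values of 79.5, 79.1 and 75.7 on F+ arrays, against 65.5, 65.5 and 62.2 on F- arrays and 63.8, 75.5 and 74.5 on sham arrays. Every F+ value was higher than every value of the other groups, and sham array 1 lay among the F- arrays. The log2 fold change between F+ and F- was 0.28 ± 0.064 (SE, 95% CI 0.13 to 0.43), a fold of 1.21 and a fold if squared of 1.76, and limma gave an adjusted p of 0.516 (unadjusted 0.0027 in the same fit). It ranged between 0.25 and 0.30 when each array was left out in turn. Against sham arrays the log2 fold change was 0.14 ± 0.064 in F+ (adjusted p = 0.689 from limma) and -0.14 ± 0.064 in F- (adjusted p = 0.743). Both depended on sham array 1, without which they were 0.058 and -0.22. Slc2a4 had values of 104.9, 99.6 and 101.8 on F+ arrays, 102.2, 100.2 and 105.9 on F- arrays and 88.8, 102.8 and 104.6 on sham arrays. These overlapped throughout, and the log2 fold change between F+ and F- was -0.0093 (95% CI -0.15 to 0.13).

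Of the hexokinases, Hk1 is found in most tissues and Hk2 is the insulin-responsive form of muscle. Hk1 had values of 92.2, 92.8 and 94.0 on F+ arrays, against 96.5, 84.5 and 84.6 on F- arrays and 86.2, 82.6 and 87.0 on sham arrays. The F+ arrays were thus above all sham arrays, whereas F- array 1 was the highest of all. The log2 fold change was 0.13 ± 0.053 between F+ and sham (adjusted p = 0.666 from limma) and 0.074 ± 0.053 between F+ and F- (adjusted p = 0.761), and this second value was 0.14 without F- array 1 and 0.042 without F- array 2. Hk2 had values of 73.8, 73.1 and 67.2 on F+ arrays, 74.6, 67.5 and 68.4 on F- arrays and 52.2, 66.8 and 68.3 on sham arrays. F+ and F- arrays overlapped, and sham array 1 was far below the rest. The log2 fold changes against sham, 0.20 ± 0.10 in F+ and 0.18 ± 0.10 in F-, became 0.078 and 0.053 without that array.

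Phosphofructokinase, the main control point of glycolysis, is assembled from muscle (Pfkm), liver (Pfkl) and platelet (Pfkp) subunits. Pfkl had values of 72.6, 68.1 and 69.5 on F+ arrays, against 66.0, 61.8 and 59.7 on F- arrays and 58.8, 62.7 and 62.0 on sham arrays. All F+ values were the higher ones in both comparisons, while F- and sham arrays overlapped. Pfkl thus had a log2 fold change of 0.17 ± 0.046 between F+ and F- (fold if squared 1.38, adjusted p = 0.601 from limma) and 0.20 ± 0.046 between F+ and sham (fold if squared 1.46, adjusted p = 0.600), and leaving out each array gave 0.13 to 0.21 and 0.17 to 0.22. Pfkp had values of 54.8, 59.4 and 61.3 on F+ arrays, against 57.9, 49.4 and 48.3 on F- arrays and 52.3, 51.7 and 50 on sham arrays. Here F- array 1 lay among the F+ arrays, and F+ lay wholly above sham. For Pfkp the log2 fold change was 0.18 ± 0.073 between F+ and F- and 0.19 ± 0.073 between F+ and sham (adjusted p = 0.671 and 0.655 from limma). Between F+ and F- it was 0.26 without F- array 1 and 0.13 without F- array 3. Pfkm ran the other way, with 117.0, 117.1 and 119.8 on F+ arrays, against 120.1, 121.4 and 124.6 on F- arrays and 119.9, 124.9 and 122.8 on sham arrays. The highest F+ value, 119.8, was just below the lowest sham value, 119.9, and the lowest F- value, 120.1, at a log2 fold change of -0.049 ± 0.027 against F- and -0.055 ± 0.027 against sham (adjusted p = 0.711 and 0.692 from limma).

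The Pfkfb enzymes make or remove the sugar bisphosphate that activates phosphofructokinase. Pfkfb1, known from liver and skeletal muscle, was the dimmest of the 35 genes, with values of 19.7, 18.7 and 21.8 on F+ arrays, against 22, 23.3 and 24.6 on F- arrays and 21.8, 21.6 and 27.0 on sham arrays. F+ arrays were below all F- arrays and overlapped sham arrays, and the log2 fold change between F+ and F- was -0.22 ± 0.097 (adjusted p = 0.674 from limma). Pfkfb2, the heart form, and Pfkfb3, which is induced by hypoxia in many cells, overlapped in all 3 comparisons. Pfkfb2 ranged over the 9 arrays between 52.9 and 64.2, and Pfkfb3 between 39.7 and 49.3. The remaining upper genes Gpi, Aldoa, Aldoc and Tpi1 convert hexose phosphates to triose phosphates. Aldoc, the brain form of aldolase, had the widest difference of these between F+ and F-, a log2 fold change of 0.16 with overlapping arrays (0.11 without F+ array 3 and 0.26 without F+ array 2). Aldoa, the muscle form, ranged over all arrays only between 154.5 and 159.9.

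**Figure D3:**
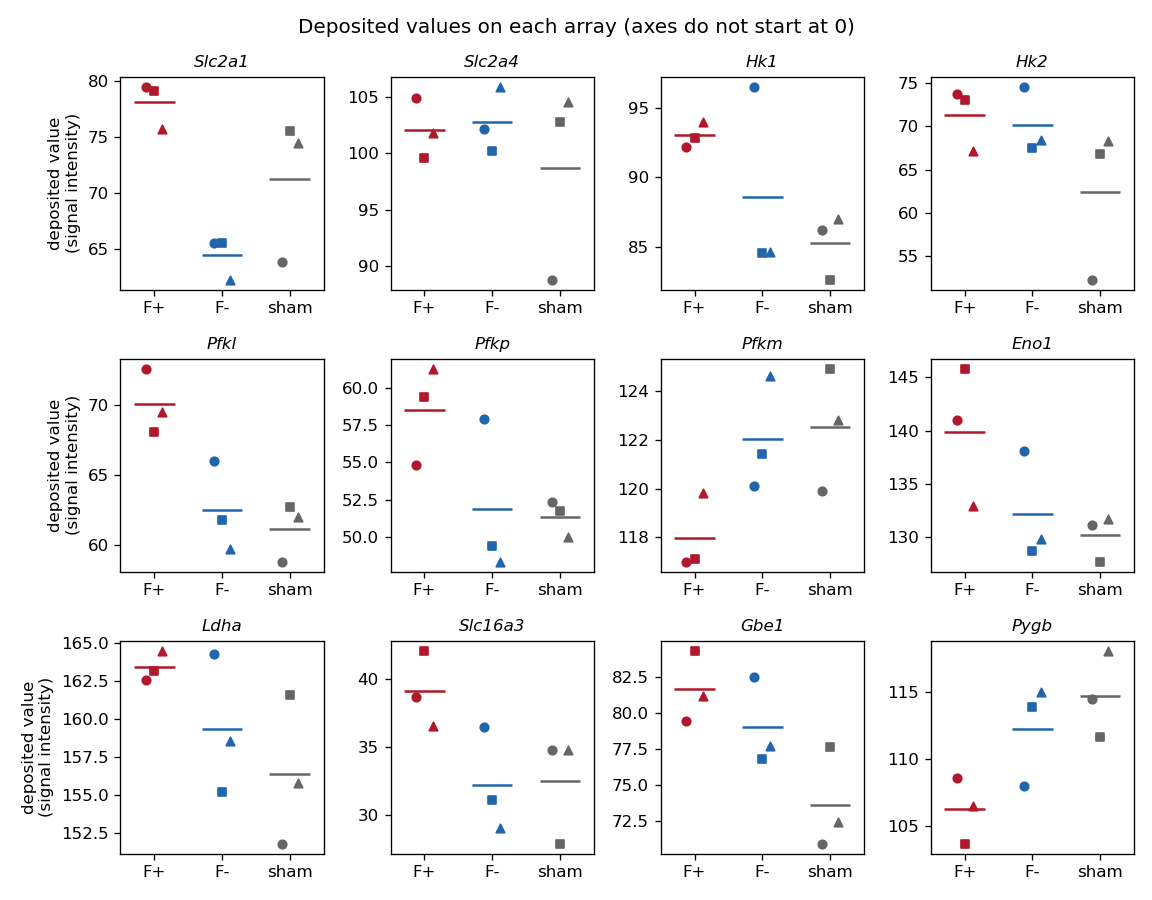
Deposited value (y axis, signal intensity, not starting at 0) of 12 of the genes on each array of the F+, F- and sham groups (x axis), with a circle, square and triangle for arrays 1, 2 and 3 and a line at the mean. Slc2a1 and Pfkl have every F+ array above every other array, and Pfkm has every F+ array below, while in Pfkp and Hk1 the circle of the F- group lies with the F+ arrays.

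In the lower part of glycolysis, which yields ATP and pyruvate, 0 of the 7 genes had separate F+ and F- arrays, as 9.74% of all features did, which is fewer than 1 gene in 7. All 7 had higher mean values in F- than in sham (48.1% of all features did), by log2 fold changes between 0.0011 and 0.11. The smallest, 0.0011, was that of Gapdh, which had 14 of its 16 features at lower values in F-. For Gapdh it was -0.0014 without sham array 1. The largest was that of Pgk1, an ATP-forming kinase. Pgk1 had values of 91.3, 95.2 and 94.0 on F+ arrays, 93.6, 98.3 and 96.3 on F- arrays and 83.4, 93.9 and 89.4 on sham arrays. F- array 1 lay just below sham array 2, so the groups overlapped, and the log2 fold change between F- and sham was 0.11 ± 0.045 (adjusted p = 0.743 from limma), or 0.068 without sham array 1. Eno1, the enolase of most tissues, had values of 141.0, 145.8 and 132.9 on F+ arrays, against 138.1, 128.7 and 129.8 on F- arrays and 131.2, 127.7 and 131.7 on sham arrays. F+ lay above sham, at a log2 fold change of 0.10 ± 0.043 (limma, adjusted p = 0.666), and overlapped F-. Its 3 features gave 0.10 to 0.12 in that comparison. Eno3, the muscle enolase, overlapped between all groups over a range between 120.7 and 144.5.

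Gapdh, a glycolytic enzyme that is often used as a reference in RT-PCR, was nearly constant. It had values of 181.6, 180.7 and 180.2 on F+ arrays, 182.5, 181.6 and 181.8 on F- arrays and 181.2, 181.6 and 182.7 on sham arrays. These overlapped, and the log2 fold change between F+ and F- was -0.0090 (95% CI -0.056 to 0.038). Its values stood close to 190.4, the highest on the arrays, and 16 features carried the symbol. Processed copies of Gapdh, Eno1, Pgam1 and Ldha are known in rodent genomes, so their values are uncertain as to which copy was measured. Over its 16 features the log2 fold change of Gapdh between F+ and F- ran between -0.0090 and 0.0099, and between F- and sham it ran between -0.016 and 0.0030.

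Pyruvate that does not enter the mitochondrion becomes lactate, and monocarboxylate transporters carry lactate across the cell membrane. Slc16a3 (MCT4), the exporter of cells with high glycolysis, had values of 38.7, 42.1 and 36.6 on F+ arrays, against 36.5, 31.1 and 29.1 on F- arrays and 34.8, 27.9 and 34.8 on sham arrays. All F+ arrays were above all others, but F+ array 3 exceeded F- array 1 by little. The log2 fold change between F+ and F- was 0.28 ± 0.11 (fold if squared 1.5, adjusted p = 0.671 from limma), the least precise of the 35, and it ran between 0.21 and 0.38 as arrays were left out. Between F+ and sham it was 0.27 ± 0.11 (adjusted p = 0.666 from limma), or 0.17 without sham array 2. Slc16a1 (MCT1), the main lactate transporter of heart muscle, had values of 119.0, 118.0 and 120.2 on F+ arrays, 123.2, 116.4 and 116.1 on F- arrays and 115.5, 112.2 and 116.5 on sham arrays. F+ was above sham and overlapped F-.

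Ldha, the lactate dehydrogenase subunit typical of glycolytic tissue, had values of 162.6, 163.2 and 164.5 on F+ arrays, against 164.3, 155.2 and 158.6 on F- arrays and 151.8, 161.6 and 155.8 on sham arrays. The F+ values lay close together and above sham, with F- array 1 among them, and the log2 fold change was 0.064 ± 0.032 between F+ and sham (adjusted p = 0.698 from limma) and 0.037 ± 0.032 between F+ and F- (0.018 without F- array 2 and 0.059 without F- array 1). The other feature of Ldha had 139.7, 136.7 and 136.7 on F+ arrays, 135.2, 127.6 and 131.9 on F- arrays and 122.1, 133.5 and 131.4 on sham arrays. There F+ lay above both other groups, at log2 fold changes of 0.066 against F- and 0.095 against sham. Ldhb, the heart subunit, varied only between 161.5 and 163.2 over the 9 arrays. At pyruvate dehydrogenase, the gate of the mitochondrion, Pdk1, Pdk2 and the catalytic subunit Pdha1 had slightly lower mean values in F+ than in either other group. Pdk1, a kinase that shuts the complex and a known target of hypoxia-inducible factors, had values of 107.0, 99.8 and 98.9 on F+ arrays, 101.5, 102.9 and 103.9 on F- arrays and 107.7, 103.2 and 103.0 on sham arrays. They overlapped, and the log2 fold change between F+ and F- was -0.013 (95% CI -0.098 to 0.072). Pdha1 had values of 127.3, 125.7 and 127.9 on F+ arrays, against 132.0, 129.3 and 132.2 on sham arrays, at a log2 fold change of -0.047.

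Among the glycogen genes, Gbe1, which adds the branches of glycogen, and Pygb, a phosphorylase that releases glucose units from it, differed in opposite directions. Gbe1 had values of 79.4, 84.3 and 81.2 on F+ arrays, 82.5, 76.8 and 77.7 on F- arrays and 70.9, 77.6 and 72.4 on sham arrays. F+ was wholly above sham, and F- array 2 fell below sham array 2. The log2 fold change was 0.15 ± 0.045 between F+ and sham (fold if squared 1.37, adjusted p = 0.616 from limma) and 0.10 ± 0.045 between F- and sham (adjusted p = 0.743). Pygb, the brain form, which the heart also makes, had values of 108.6, 103.7 and 106.5 on F+ arrays, against 108.0, 113.9 and 115.0 on F- arrays and 114.5, 111.7 and 118.1 on sham arrays. F+ was below every sham array, and F- array 1 lay with F+. Between F+ and sham the log2 fold change was -0.11 ± 0.036 (fold if squared 0.756, adjusted p = 0.616 from limma), and -0.13 to -0.090 with each array left out.

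Ugp2, which makes the activated glucose for glycogen synthesis, had values of 97.7, 99.4 and 102.0 on F+ arrays, 102.3, 102.8 and 101.0 on F- arrays and 95.9, 97.8 and 98.9 on sham arrays. F- lay above sham, at a log2 fold change of 0.065 ± 0.026 (limma, adjusted p = 0.743). Pgm1, which moves phosphate between positions of glucose, had values of 100.5, 100.1 and 99.3 on F+ arrays, 105.3, 97.9 and 99.8 on F- arrays and 95.5, 94.6 and 101.0 on sham arrays, overlapping in all 3 comparisons. Gys1, the muscle glycogen synthase, had its F+ values (94.7 to 95.5) below its F- values (96.4 to 100.0) and within the sham range (89.5 to 99.8). Pygm, the muscle phosphorylase, had values of 145.5, 144.7 and 139.5 on F+ arrays, 141.7, 148.6 and 146.2 on F- arrays and 145.7, 147.8 and 145.6 on sham arrays. The highest F+ value, 145.5, was just below the lowest sham value, 145.6. Pygl, the liver phosphorylase, was dim, at 27.0, 29.8 and 27.0 on F+ arrays, 27.0, 26.1 and 26 on F- arrays and 24.6, 27.0 and 27.0 on sham arrays.

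Since several steps are served by isoforms from separate genes, the log2 ratio of 11 pairs of isoform genes was formed within each array. If the deposited values are linear intensities, this removes any scaling common to the array, and otherwise it need not. Between F+ and F- the ratio did not overlap for 3 pairs. The difference was 0.29 for Slc2a1 over Slc2a4, 0.21 for Pfkl over Pfkm and 0.28 for Slc16a3 over Slc16a1, each at an exact two-sided permutation p of 0.1, the smallest that 3 arrays against 3 allow (0.367 after adjustment over the 11 pairs). Between F+ and sham there were 6 such pairs, each with a higher ratio in F+. They were Slc2a1 over Slc2a4 (0.084), Pfkp over Pfkm (0.24), Pfkl over Pfkm (0.25), Ldha over Ldhb (0.060), Slc16a3 over Slc16a1 (0.22) and Pygl over Pygm (0.12), each with an exact permutation p of 0.1 and 0.183 after adjustment. Between F- and sham only Slc2a1 over Slc2a4 separated, at -0.20 (exact permutation p = 0.1, adjusted 0.978). Without sham array 2 the difference between F+ and sham for Slc16a3 over Slc16a1 was 0.13. With F- array 1 left out, 8 of the 11 pairs had no overlap between F+ and F-. A group with fewer arrays separates more readily, so that rise cannot be put down to that array alone. The ratios were formed from the same values as the changes of single genes above and are not independent of them. No background over other pairs of genes was formed for these counts. The design could not reach an exact p under 0.05 for any pair, and some pairs share a gene.

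**Figure D4:**
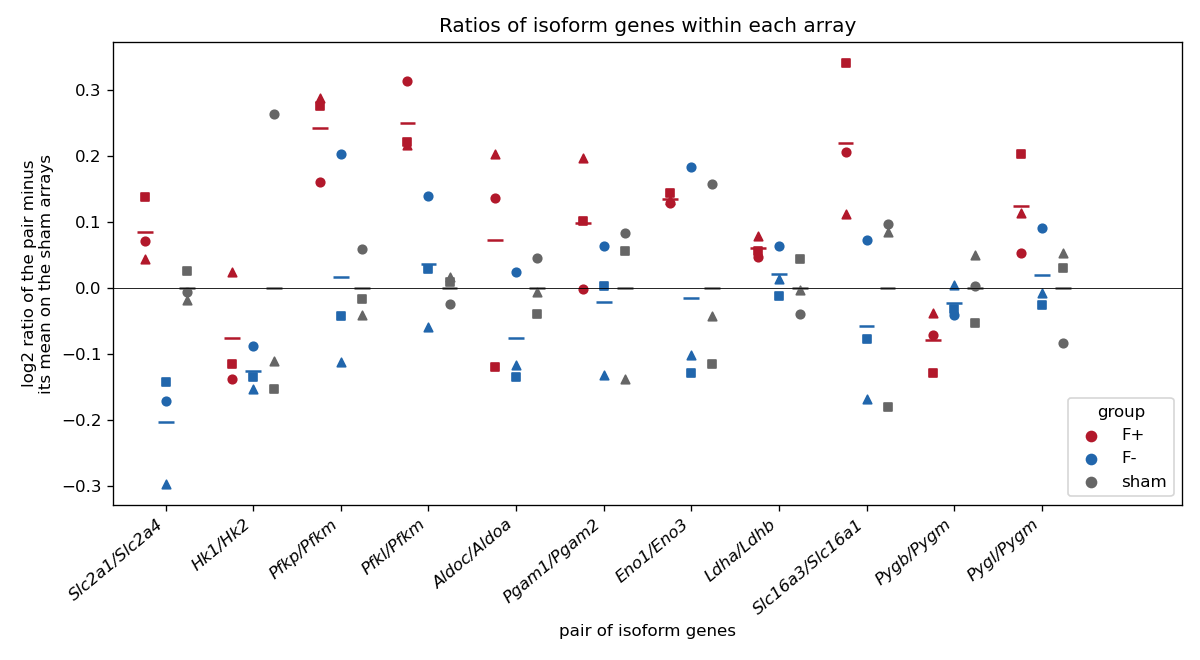
Log2 ratio of 11 pairs of isoform genes within each array (y axis) minus its mean on the sham arrays, for F+, F- and sham arrays, with circle, square and triangle for arrays 1, 2 and 3 and a line at the mean. For Slc2a1 over Slc2a4 the F+ arrays lie highest and the F- arrays lowest, and for Pfkl over Pfkm and Slc16a3 over Slc16a1 all F+ arrays lie above all others.

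Beyond the 35, 60 other genes of the same pathways were listed and 48 had a feature. None of these passed in limma in any comparison, with smallest adjusted p of 0.462 between F+ and F-, 0.743 between F- and sham and 0.600 between F+ and sham. At an unadjusted p under 0.05 there were 3 of them (6.25%, against 7.41% of all features), 5 (10.4%, against 6.03%) and 5 (10.4%, against 7.4%) in the same order, and their median log2 fold changes were -0.015, 0.0056 and -0.0072. Eno2, the neuronal enolase, had values of 53.6, 54.8 and 55.4 on F+ arrays, against 45.7, 36.6 and 42.5 on F- arrays and 43.8, 42.9 and 43.2 on sham arrays. The F+ arrays were clearly apart from both groups. Its log2 fold change was 0.40 ± 0.072 between F+ and F- (fold if squared 1.93, adjusted p = 0.462 from limma) and 0.33 ± 0.072 between F+ and sham (fold if squared 1.75, adjusted p = 0.600), both wider than those of any of the 35. Slc2a3 (GLUT3), a transporter of neurons and blood cells, had values of 45.8, 43.6 and 45.1 on F+ arrays, 42.0, 38.8 and 38.9 on F- arrays and 44.9, 38.9 and 40.2 on sham arrays. F+ was above F- by 0.17 ± 0.058 on the log2 scale (limma, adjusted p = 0.639) and overlapped sham. Both stood beside the higher macrophage and red cell markers of F+ given above, whose part was not tested.

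Pdk4 and Txnip, which restrain glucose use, had their highest values on sham array 1. Pdk4, a pyruvate dehydrogenase kinase raised by fatty acids and fasting, had values of 113.7, 112.1 and 111.6 on F+ arrays, 99.9, 94.7 and 105.5 on F- arrays and 140.5, 112.3 and 109.3 on sham arrays. The F- arrays were the lowest, at a log2 fold change of -0.26 ± 0.091 against sham (fold if squared 0.511, adjusted p = 0.743 from limma), which was -0.15 without sham array 1. Txnip, which limits glucose uptake, had values of 130.1, 120.8 and 126.0 on F+ arrays, 111.6, 124.1 and 128.7 on F- arrays and 147.2, 130.8 and 131.1 on sham arrays. All F+ and F- arrays were below all sham arrays, and the log2 fold change between F- and sham was -0.17 ± 0.067 (adjusted p = 0.743 from limma), or -0.11 without F- array 1. Gys2, the liver glycogen synthase, was very dim, with mean values of 12.8 in F+, 11.7 in F- and 13.0 in sham.

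The other genes named by the smallest p were smaller in change. Pdhx, a structural part of pyruvate dehydrogenase, had values of 91.2, 84.0 and 85.3 on F- arrays against 75.6, 81.5 and 83.5 on sham arrays, at a log2 fold change of 0.12 ± 0.046, or 0.073 without sham array 1. Pdhb, the partner subunit of Pdha1, had a log2 fold change of -0.065 between F+ and F-. Between F+ and sham, Pdk3, a kinase of the complex that hypoxia is known to raise, had 35.9, 39.4 and 39.3 on F+ arrays against 35.9, 35.6 and 33.0 on sham arrays (log2 fold change 0.13 ± 0.047). Gyg1, the protein primer of glycogen, had a log2 fold change of 0.078, with 113.7, 117.9 and 111.2 on F+ arrays against 106.5, 109.5 and 108.6 on sham arrays and no overlap. Slc2a8, an intracellular glucose transporter, had a log2 fold change of -0.090.

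**Figure D5:**
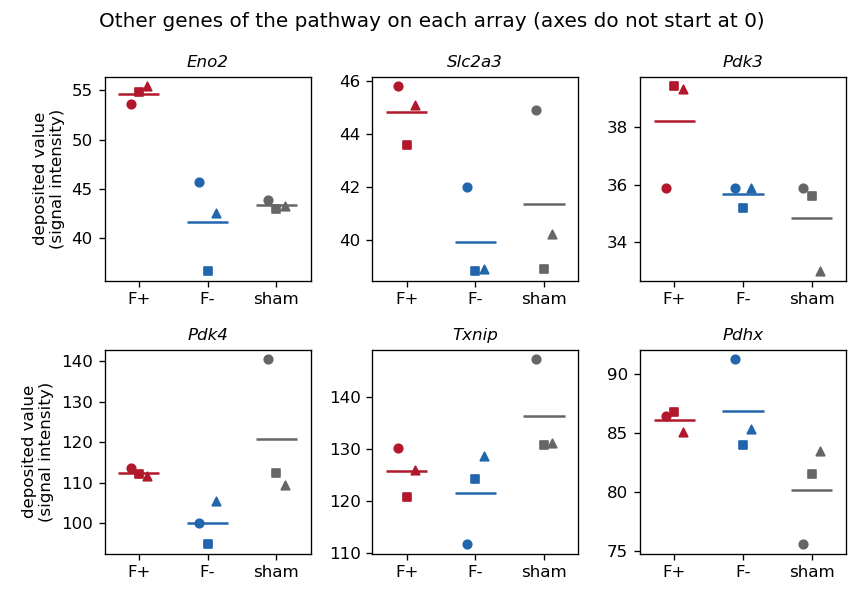
Deposited value (y axis, signal intensity, not starting at 0) of 6 other genes of the pathway on the F+, F- and sham arrays (x axis), drawn with circle, square and triangle for arrays 1, 2 and 3 and a line at the mean. Eno2 has all F+ arrays at 53.6 or more while no other array exceeds 45.7, and for Pdk4 and Txnip sham array 1 lies far above the rest.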

How the data were processed

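Total RNA of right ventricles from 3 groups (F+, F- and sham, 3 arrays each) was hybridized by the authors to Affymetrix Rat Gene 1.0 ST arrays. RNA extraction is given as TRIzol in the methods and as Sepasol in the sample records, and the labelled product as sense-strand cDNA and as biotinylated cRNA. The authors deposited a signal intensity for each feature on each array. The software, normalization and scale are not given in the sources used here. A range like that of squared log2 values, if real, makes the folds on the log2 scale too small.

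In the platform annotation, 15310 of 29215 features had 1 gene symbol, 323 had several and 13582 had no entry. Gene IDs of 15279 matched RefSeq GRCr8, which changed 0 symbols. The values of 200 features repeated those of another feature and were kept. Each gene took its feature with the highest mean over the 9 arrays, and 29 of the 35 genes had a single feature.

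On log2 of the deposited values, without a filter, limma 3.58.1 was run (functions lmFit and eBayes, R 4.3.3, with data.table version 1.17.8). The model had 1 mean for each group of the 9 arrays, and used Benjamini-Hochberg adjustment over all features at 0.05. The same steps were first tested on simulated data. Ratios of isoform pairs were compared by the exact two-sided permutation test. Plots used Python 3.11.15, pandas 2.3.3 and matplotlib 3.10.9. For arrays, their number limits the precision.

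All 35 genes could be named. Values on every array were printed for those with the 6 smallest p in each comparison, for Gapdh, Slc2a1, Slc2a4, Hk2, Ldha and Pdk1, and for isoform pairs without overlap, and of the other genes of the pathway up to 4 per comparison with the smallest p were named. Hk1, Pdha1 and Gys1 were added after their values were seen. The members and lists were chosen with earlier results of these data known.

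Alternatives were square roots or untransformed values, median centring, quantile normalization, omission of the dimmest 33.3% of features or of features without a single symbol, a block for the replicate number, a fit to the compared groups alone, a variance trend with robust priors, a gene's mean over all its features, each array left out, and sham array 2 with F- array 1 left out. RT-PCR and cell culture data were not analysed here.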

Additional observations from a re-analysis of the deposited data

How the results depend on the processing

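In all settings tried, 0 of the 35 genes and 0 of the 48 other genes passed the adjusted threshold in limma. The numbers at an unadjusted p under 0.05 moved. Between F+ and sham the 7 genes became 11 with square roots, with untransformed values and with the variance trend, and 3 to 7 with each array left out, with 3 without F+ array 2. Shares of all features at that p, 7.4% as reported, were 8.16%, 8.59% and 8.2% in those 3 settings and 5.12% without F+ array 2. Between F- and sham the 2 genes became 4 with square roots, untransformed values, the dimmest features left out, the variance trend, or both sham array 2 and F- array 1 left out (5.98% to 7% of all features), 1 with quantile normalization or only the 2 groups, and 0 to 3 with each array left out, with 0 without F- array 2 (8.3% of all features, against 6.03% with it). Between F+ and F- the 4 genes became 7 without F- array 1, alone or together with sham array 2, and 2 without F- array 2 or F- array 3. All features moved too, with 10.5% without F- array 1, 9.49% without both arrays, 7.19% without F- array 2 and 5.12% without F- array 3, against 7.41% as reported. Median differences on the square root scale were 0.068 between F- and sham and 0.13 between F+ and sham. On untransformed values the medians were -0.23 (F+ against F-), 1.33 (F- against sham) and 2.23 (F+ against sham), in signal units. Isoform pairs without overlap numbered 3 to 8 between F+ and F- and 1 to 3 between F- and sham with each array left out, 8 and 6 with both arrays left out, and 2 between F- and sham on untransformed values. Between F+ and sham the 6 pairs became 5 with square roots, 4 with untransformed values or quantile normalization, 6 to 7 with each array left out and 7 with both left out. Groups with fewer arrays separate more readily, which these counts do not allow for. The causes were not tested.

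Of 1177 values of single genes under the alternatives, 18 turned in direction, in 6 genes, all of them close to 0. Slc2a4 between F+ and F- was 0.00036 with quantile normalization. With the mean of all features, Gapdh was 0.00072 between F+ and F- and -0.0067 between F- and sham, and it was -0.0020 between F- and sham with both arrays left out. Leaving out each array gave -0.029 to 0.013 for Slc2a4, -0.0026 to 0.070 for Hk2, -0.049 to 0.0081 for Pdk1 and -0.0083 to 0.035 for Slc16a1 between F+ and F-. It gave -0.0014 to 0.0045 for Gapdh, -0.013 to 0.10 for Slc2a4 and -0.13 to 0.026 for Eno2 between F- and sham, and -0.023 to 0.095 for Slc2a4 between F+ and sham. Where an array left a group with 2, the fit pooled the spread of all groups.

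Arrays of the same number did not deviate together (correlations -0.21 to 0.053, with 0 of 9 over 0.1). Among arrays of different number, F+ array 1 and F- array 2 had the highest correlation, 0.26. The deviations were taken from the mean of each group of 3, which ties them to one another. They cannot show whether arrays shared an origin. With the replicate block, the genes at an unadjusted p under 0.05 were 5 between F+ and F-, 1 between F- and sham and 4 between F+ and sham. The shares of all features were 6.59%, 5.37% and 6.58% in the same order. The check of single samples against their group was not run on groups of 3.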
